A study of Mus musculus with 6 samples.

Results

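The cathepsins are the main peptidases of the endosomes and lysosomes, and 10 of their genes were followed here in RAW264.7 cells: Ctsa, Ctsb, Ctsc, Ctsd, Ctse, Ctsf, Ctsh, Ctsl, Ctss and Ctsz. They were taken by symbol from a table of 16108 genes, and all 10 were among the 11664 genes that had at least 0.5 FPKM, a read count scaled to transcript length and library size, in at least 3 libraries. RAW264.7 is a mouse macrophage-like line transformed by Abelson leukaemia virus. The cells had settled overnight on acoustic devices and were then kept on them for 48 h, either with the acoustics on, at 18 V peak to peak and 5 kHz (3 libraries), or with the acoustics off (3 libraries). All cells came from the same line and both groups sat on devices; the petri-dish control named in the study's design was not analysed here.

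Cathepsins are made as inactive precursors, tagged with mannose 6-phosphate in the Golgi, carried to acidic compartments and activated there by cleavage. Most are papain-type cysteine peptidases, while cathepsins D and E are aspartic peptidases and cathepsin A is a serine carboxypeptidase. In macrophages they degrade what the cell has taken up, trim the invariant chain and antigens for class II presentation, and are partly secreted to act on the matrix. Cystatins and stefins inhibit the cysteine members, and transcription factors of the MiT/TFE family are known to drive many lysosomal genes.

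Libraries differed in ways that touch these genes. The deposited FPKM summed to 1000722, 824063 and 716509 in acoustics-on replicates 1, 2 and 3, against 840707, 825342 and 821818 in acoustics-off replicates 1, 2 and 3. Across 10462 protein-coding genes, the rank correlation between transcript length and the log2 difference from the acoustics-off mean was -0.55, -0.44 and 0.03 in acoustics-on replicates 1, 2 and 3, and between -0.31 and 0.24 in the acoustics-off libraries, each set against the other acoustics-off libraries. The steps of the low values gave relative depths of 0.96 to 1.07. All 9 macrophage markers were detected, and their summed level ran from 20322 to 27343 FPKM with acoustics on and from 28681 to 30920 FPKM with acoustics off. Most of that sum was Lyz2, at 16356 to 23205 FPKM with acoustics on and 23951 to 26096 FPKM with acoustics off. Of the 9, 0 passed (limma), 3 had a positive log2 difference (Spi1, Cd14 and Fcgr1) and 6 a negative one, of which Csf1r had the lowest at -0.85 (adjusted p = 0.096). The part of these levels in the results was not tested. The measured B cell (2 of 4), epithelial (1 of 4) and endothelial (2 of 4) markers summed to at most 0.215 FPKM in any library, and 5 of 6 fibroblast markers to at most 3.08 FPKM. Of the neutrophil markers only S100a8 was measured, at 1.52, 6.97 and 6.62 FPKM with acoustics on, against 0.179, 0.181 and 0.0916 FPKM with acoustics off (limma, adjusted p = 0.053). S100a8 reached 0.5 FPKM only in its acoustics-on libraries, so its direction was fixed by the cut-off on low values. Its part was not tested either. In bulk libraries of this kind, fewer cells that express a gene and less of its RNA per cell cannot be told apart. Since the labels name no separate cultures or days, the p-values cover only the spread among these 6 libraries, part of which may be technical.

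With acoustics on, Ctse fell, and 9 of the 10 cathepsins did not pass the test (limma on log2(FPKM + 1), Benjamini-Hochberg adjusted p under 0.05 over all 11664 genes). Of all genes tested, 2.07% passed, 1.5% higher and 0.574% lower with acoustics on. At an unadjusted p under 0.05 there were 3 members, Ctsd higher and Ctse and Ctsf lower, where 19.7% of all genes tested were under it, 10.5% higher and 9.16% lower. The authors' deposited table had 1 member higher (Ctsd) and 1 lower (Ctse), where 7.56% of the genes with an adjusted p passed there, 5.08% higher and 2.49% lower. The transcript of the other aspartic peptidase, Ctsd, stood at higher values in all 3 acoustics-on libraries and made up a larger share of the cathepsin FPKM there, without passing. Ctsl was also higher in all 3 acoustics-on libraries, and Ctsa, Ctsf and Ctss were lower in all 3, again without passing. For 6 of the 10 members the groups did not overlap (2 higher and 4 lower with acoustics on), where 34.8% of all tested genes did not overlap, 17.1% higher and 17.7% lower. The median log2 difference of the members was -0.14, against -0.027 over all genes tested.

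**Figure D1:**
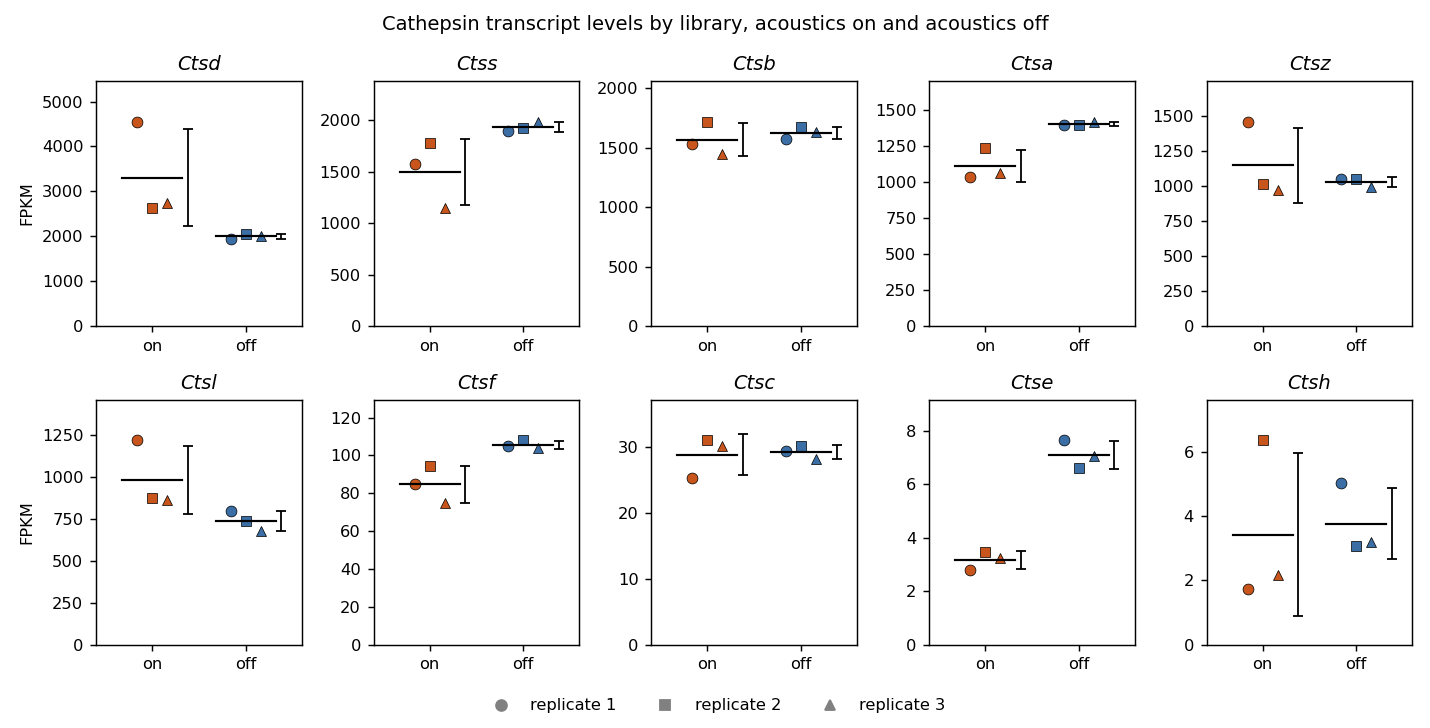
FPKM of the 10 cathepsins in each of the 6 libraries, ordered by their acoustics-off mean; circles, squares and triangles are replicates 1, 2 and 3, horizontal bars are group means and the vertical bars beside them are 1 SD (n = 3). Ctse lies between 2.80 and 3.45 FPKM with acoustics on, below every acoustics-off library, and Ctsd lies between 2634 and 4548 FPKM with acoustics on, above every acoustics-off library.

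Of the aspartic peptidases, Ctse fell and Ctsd did not pass. Ctse (chromosome 1, 131638306 to 131675505, GRCm38) encodes cathepsin E, an aspartic peptidase of endosomes and of the secretory route that is found mostly in immune and epithelial cells. It had 2.80, 3.45 and 3.24 FPKM in acoustics-on replicates 1, 2 and 3, against 7.64, 6.59 and 7.07 FPKM in acoustics-off replicates 1, 2 and 3. Every acoustics-on library was below every acoustics-off library, with little spread inside either group. The means were 3.16 ± 0.330 FPKM with acoustics on and 7.10 ± 0.525 FPKM with acoustics off (SD, n = 3 each), so the level was 55.4% lower. The log2 difference in log2(FPKM + 1), a scale that shrinks changes of genes as low as this one, was -0.96 (SE 0.13, 95% interval -1.27 to -0.65, limma adjusted p = 0.019). In the authors' deposited table, which came from counts, the log2 fold change was -1.17 (SE 0.18, adjusted p = 2.7e-08 there). The authors' deposited mean was 433 normalised counts for Ctse, a depth at which counting error is 4.81% of the value. The call was lost without acoustics-on replicate 3 (adjusted p = 0.063), without acoustics-off replicate 1, 2 or 3 (adjusted p = 0.15, 0.13 and 0.14), and with every library brought to the same FPKM total (adjusted p = 0.059), a setting chosen after seeing the data. The log2 difference stayed between -1.14 and -0.81 over the 22 alternatives tried, with an adjusted p from 0.0012 to 0.15.

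Ctsd (chromosome 7, 142375911 to 142388038) encodes cathepsin D, the chief aspartic endopeptidase of lysosomes. It had 4548, 2634 and 2738 FPKM in acoustics-on replicates 1, 2 and 3, against 1939, 2042 and 2012 FPKM in acoustics-off replicates 1, 2 and 3. All acoustics-on libraries were above all acoustics-off libraries, and replicate 1 stood far above the other acoustics-on libraries. The means were 3307 ± 1076 FPKM with acoustics on and 1998 ± 53.3 FPKM with acoustics off (SD, n = 3 each), a log2 difference of 0.68 (SE 0.25, 95% interval 0.10 to 1.26, limma adjusted p = 0.21). In the authors' deposited table the log2 fold change was 0.73 (SE 0.25) with an adjusted p of 0.0496, just inside the threshold. Without acoustics-on replicate 1 the log2 difference was 0.43 (limma adjusted p = 0.083). It passed with quantile normalization (0.80, adjusted p = 0.042) and with library weights (0.44, adjusted p = 0.030), where 320 and 1882 of 11664 genes passed. The range over the 22 alternatives was 0.40 to 0.82, with adjusted p-values from 0.021 to 0.55. The annotated span of Ctsd overlaps the gene Gm49369 by 6757 bases on the same strand, which was listed at 0.277 FPKM or less with acoustics on and 0.280 FPKM or less with acoustics off.

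The 2 aspartic members lay on opposite sides of 0. For each 1000 FPKM of Ctsd there were 0.616, 1.31 and 1.19 FPKM of Ctse in acoustics-on replicates 1, 2 and 3, against 3.94, 3.23 and 3.51 FPKM in acoustics-off replicates 1, 2 and 3. The difference in the log2 ratio of Ctse to Ctsd was -1.85, given as a description, since the groups of both genes were already apart in opposite directions. Such a ratio within a library does not move with the scaling of that library.

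**Figure D2:**
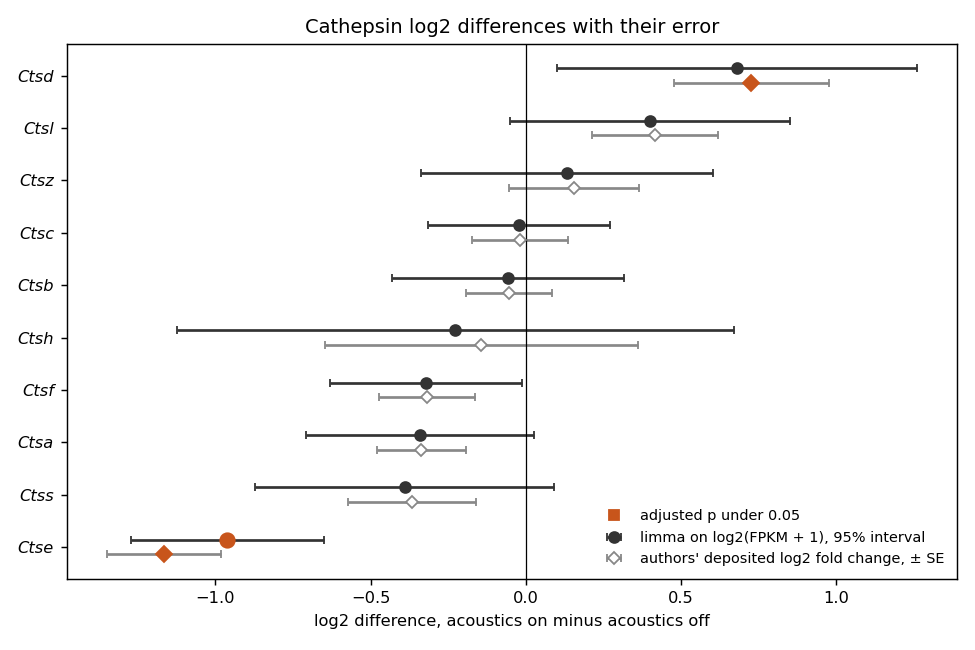
Log2 differences of the 10 cathepsins, acoustics on minus acoustics off, with the 95% interval from limma (filled circles) and the authors' deposited log2 fold changes ± SE (diamonds); orange marks an adjusted p under 0.05. Ctse passes in both, at -0.96 and -1.17, and Ctsd at 0.68 in limma does not pass while the authors' value of 0.73 does.

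The promoter windows of these genes were searched for the site of the MiT/TFE factors. These factors are known to bind the E-box CACGTG, above all in the form TCACGTG (the core of the CLEAR element). RefSeq promoters on GRCm38.p6, from 250 bases before to 50 after the annotated start, were matched for 7 members, and Ctsb, Ctse and Ctsh were not matched. The E-box, which reads the same on both strands, lay in 4 of the 8 windows of these 7 genes (Ctsa, Ctsd, Ctsf and Ctsl), against 7.15% of 32851 promoters. TCACGTG, searched on both strands and overlapping the E-box by construction, lay in those of Ctsa and Ctsd, against 3.77% of all promoters. The E-box is in capitals in the stretches below, 5′ to 3′ on the strand of the gene.
Ctsa, first match: agcaaactgtCACGTGatgcagatgc
Ctsa, second match: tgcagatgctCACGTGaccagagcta
Ctsd, upstream match: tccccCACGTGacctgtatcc
Ctsd, proximal match: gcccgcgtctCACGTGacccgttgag
Ctsf: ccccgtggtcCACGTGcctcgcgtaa
Ctsl: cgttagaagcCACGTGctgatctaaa

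The Ctsa stretches lie at chr2:164833751-164833776 and chr2:164833768-164833793 on the plus strand, the Ctsd stretches at chr7:142388057-142388077 and chr7:142387910-142387935 on the minus strand, the Ctsf stretch at chr19:4855076-4855101 on the plus strand and the Ctsl stretch at chr13:64370741-64370766 on the minus strand. The proximal Ctsd match begins 98 bases before the RefSeq start of its gene and the Ctsf match 79 bases before that of Ctsf. The RefSeq starts are not those of the GENCODE gene spans given in this report. By those spans the Ctsa stretches, the proximal Ctsd stretch and the Ctsl stretch lie inside the gene. The motif was in promoters of genes on both sides of 0: Ctsd and Ctsl were higher in all acoustics-on libraries, and Ctsa and Ctsf lower. The antioxidant response core TGACNNNGC, on both strands, was in the windows of Ctsd and Ctsz and in 12.4% of all promoters. The PU.1 motif GAGGAAG, on both strands, was in those of Ctsc and Ctss and in 13.6% of all promoters. These matches are letters in a window and not shown binding sites, and their part in the levels was not tested.

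Among the abundant cysteine endopeptidases, Ctsl and Ctss lay on opposite sides of 0 and neither passed. Ctsl (chromosome 13, 64359337 to 64370890) encodes cathepsin L, a broad lysosomal endopeptidase that can also activate other precursors. It had 1218, 872 and 859.7 FPKM with acoustics on, against 797, 736 and 677 FPKM with acoustics off. All acoustics-on libraries were higher, replicate 1 by the most, with a log2 difference of 0.40 (SE 0.19, 95% interval -0.05 to 0.85, limma adjusted p = 0.29), and of 0.24 without that library. Ctss (chromosome 3, 95526786 to 95556403) encodes cathepsin S, which stays active at neutral pH and cleaves the invariant chain of class II molecules. It had 1572, 1775 and 1146 FPKM with acoustics on, against 1891, 1922 and 1983 FPKM with acoustics off. All acoustics-on libraries were lower, and replicate 3 was the lowest, with a log2 difference of -0.39 (SE 0.20, 95% interval -0.87 to 0.09, limma adjusted p = 0.32), and of -0.21 without that library. Ctss is 1 of the 2 shortest members by the length that the deposited FPKM and mean counts imply, and its log2 difference was -0.56 once a length and GC trend on that implied length was divided out (adjusted p = 0.057, a setting chosen after seeing the data).

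The ratio of Ctsd to Ctss was 2.89, 1.48 and 2.39 in acoustics-on replicates 1, 2 and 3, against 1.03, 1.06 and 1.01 in acoustics-off replicates 1, 2 and 3. Both transcripts were thus at nearly the same level per length with acoustics off, and Ctsd stood further above Ctss in every acoustics-on library. The difference in the log2 ratio was 1.07, again a description of 2 genes whose groups lay apart in opposite directions.

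Ctsb and Ctsz, which encode cathepsins B and Z with carboxypeptidase activity, overlapped between the groups. Ctsb (chromosome 14, 63122462 to 63145923) had 1535, 1719 and 1450.5 FPKM with acoustics on, against 1575, 1676 and 1632 FPKM with acoustics off. Its log2 difference of -0.057 had a 95% interval of -0.43 to 0.32 (limma adjusted p = 0.84). Ctsz (chromosome 2, 174427493 to 174439039) had 1458, 1014 and 969.7 FPKM with acoustics on, against 1049, 1047 and 991 FPKM with acoustics off. Only acoustics-on replicate 1 stood above the acoustics-off libraries, and the log2 difference of 0.13 (95% interval -0.34 to 0.60, limma adjusted p = 0.70) became -0.053 without that library.

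Ctsa and Ctsf were lower in every acoustics-on library. Ctsa (chromosome 2, 164832873 to 164841032) encodes cathepsin A, a serine carboxypeptidase that also holds beta-galactosidase and neuraminidase 1 in a protected complex. It had 1034, 1236 and 1064 FPKM with acoustics on, against 1395, 1397 and 1417 FPKM with acoustics off, a mean that was 20.8% lower. The log2 difference was -0.34 (SE 0.16, 95% interval -0.71 to 0.03, limma adjusted p = 0.28). Ctsa overlaps Pltp by 1515 bases on the opposite strand, and whether the authors' counting used strand is not given in the sources used here. Pltp had 203, 245 and 148 FPKM with acoustics on, against 350.2, 344 and 344 FPKM with acoustics off, and its part in the Ctsa values was not tested. Ctsf (chromosome 19, 4855130 to 4860918) encodes cathepsin F, a cysteine endopeptidase known to cleave the invariant chain in macrophages. It had 84.9, 94.5 and 74.8 FPKM with acoustics on, against 105, 108 and 104 FPKM with acoustics off, and its log2 difference was -0.32 (SE 0.13, 95% interval -0.63 to -0.01, limma adjusted p = 0.24).

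Ctsc and Ctsh, which encode peptidases that cut from the amino end, were low beside the abundant cathepsins. Ctsc (chromosome 7, 88278085 to 88310888) encodes dipeptidyl peptidase I, which activates the serine proteases of granules. It had 25.4, 31.0 and 30.3 FPKM with acoustics on, against 29.4, 30.2 and 28.1 FPKM with acoustics off, and the groups overlapped with a log2 difference of -0.022 (95% interval -0.31 to 0.27, limma adjusted p = 0.93). Ctsh (chromosome 9, 90054152 to 90076089) encodes an aminopeptidase. It had 1.75, 6.37 and 2.18 FPKM with acoustics on, against 5.05, 3.08 and 3.19 FPKM with acoustics off. Acoustics-on replicate 2 was the highest of all 6 libraries and replicates 1 and 3 the lowest, so the spread was wide (log2 difference -0.23, 95% interval -1.13 to 0.67, limma adjusted p = 0.73). The authors' deposited mean was 153 normalised counts for Ctsh, and the coefficient of variation was 74.5% with acoustics on and 29.3% with acoustics off. Its log2 difference was 0.045 without acoustics-on replicate 1 and -0.67 without acoustics-on replicate 2.

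A wider spread with acoustics on was common to most genes. The coefficient of variation over the 3 libraries was larger with acoustics on for 10 of the 10 cathepsins, and for 88.9% of all genes tested. Ctsa, for example, varied by 9.83% with acoustics on and by 0.886% with acoustics off.

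The order of levels, which FPKM allows because it is per length, was similar in both groups. With acoustics on, Ctsd led at a mean of 3307 FPKM, above Ctsb (1568), Ctss (1498), Ctsz (1147), Ctsa (1111) and Ctsl (983) in mean FPKM. Below Ctsd, each of these neighbours overlapped with the next, and Ctsb was above Ctss, and Ctsz above Ctsa, in 1 of the 3 acoustics-on libraries each. With acoustics off, the means ran from Ctsd (1998 FPKM) through Ctss (1932), Ctsb (1628), Ctsa (1403), Ctsz (1029) and Ctsl (737). There, Ctsd and Ctss overlapped and each of the other neighbours was separate. Ctsf, Ctsc, Ctsh and Ctse followed far below in both groups. Ctse was above Ctsh in all 3 acoustics-off libraries and in 2 of the 3 acoustics-on libraries it was also higher, with overlapping ranges in the acoustics-on group. By rank among all 16108 genes, Ctsd stood at 23, 51 and 22 in acoustics-on replicates 1, 2 and 3, against 86, 79 and 81 in acoustics-off replicates 1, 2 and 3.

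The 10 genes together took a slightly larger share of each acoustics-on library. Their summed level was 11480.1, 9384 and 8338 FPKM in acoustics-on replicates 1, 2 and 3, against 8792, 8969 and 8855 FPKM in acoustics-off replicates 1, 2 and 3, and these sums overlapped. As a share of all FPKM in the same library they made up 1.15%, 1.14% and 1.16% with acoustics on, against 1.05%, 1.09% and 1.08% with acoustics off. These shares did not overlap, but 7 of the 10 members had a log2 difference below 0. Ctsd was the largest part of the sum in every library. The 2 aspartic members, nearly all of it Ctsd, summed to 3310 ± 1076 FPKM with acoustics on and 2005 ± 52.8 FPKM with acoustics off (SD, n = 3 each). The mean share was 1.15 ± 0.0127% with acoustics on and 1.07 ± 0.0215% with acoustics off (SD, n = 3 each). Ctsd held 39.6%, 28.1% and 32.8% of the summed cathepsin FPKM with acoustics on, against 22.1%, 22.8% and 22.7% with acoustics off. Ctss held 13.7%, 18.9% and 13.7% with acoustics on, against 21.5%, 21.4% and 22.4% with acoustics off. The 7 cysteine members summed to 5313 ± 702 FPKM with acoustics on and 5464 ± 53.3 FPKM with acoustics off (SD, n = 3 each), a difference smaller than the spread among the acoustics-on libraries.

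**Figure D3:**
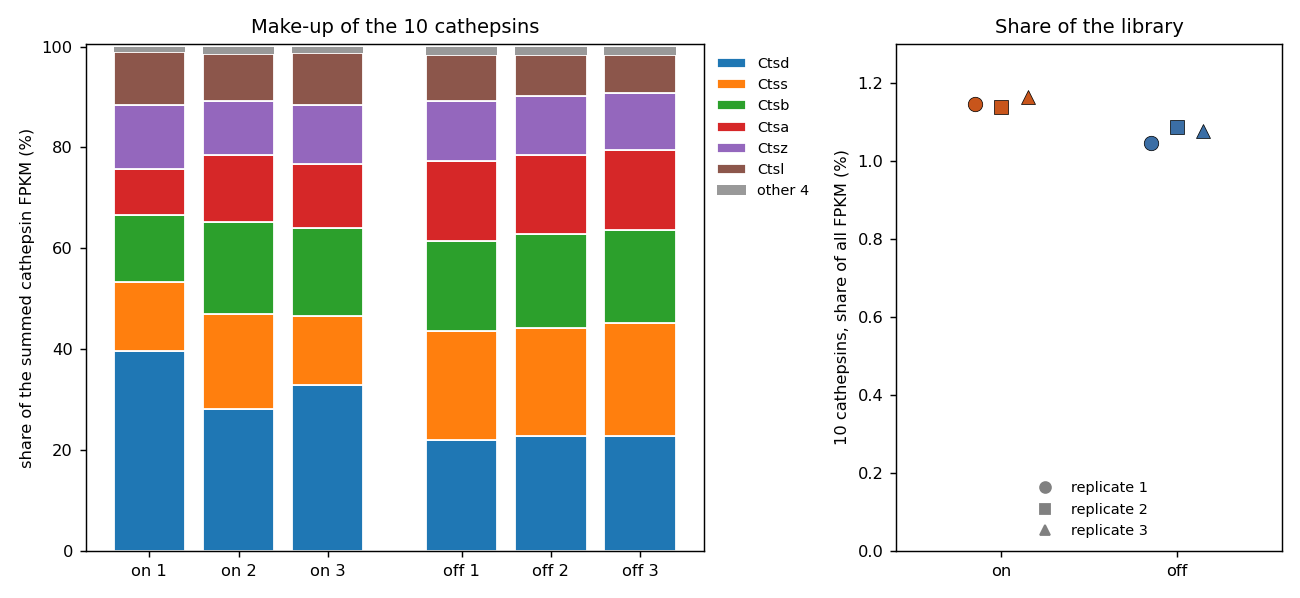
Left, the share of each cathepsin in the summed FPKM of the 10 genes for each library; right, the sum of the 10 genes as a share of all FPKM in the library, with circles, squares and triangles for replicates 1, 2 and 3. Ctsd fills 28.1% to 39.6% of the acoustics-on bars and 22.1% to 22.8% of the acoustics-off bars, and the library share is 1.14% to 1.16% with acoustics on and 1.05% to 1.09% with acoustics off.

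The genes around the cathepsins moved both ways. Of 4 MiT/TFE transcription factor genes, Tfec rose and 0 fell, where 1.5% of all genes tested rose and 0.574% fell (limma). Tfec had 13.2, 10.8 and 9.89 FPKM with acoustics on, against 5.71, 5.90 and 5.65 FPKM with acoustics off (log2 difference 0.86, SE 0.14, limma adjusted p = 0.034). Tfec is a macrophage-restricted member of the family. Tfe3 had 37.3, 37.6 and 35.1 FPKM with acoustics on, against 55.9, 46.1 and 51.6 FPKM with acoustics off, and did not pass (log2 difference -0.47, SE 0.12, limma adjusted p = 0.11). The log2 differences of Tfeb and Mitf were -0.11 and -0.22 (limma adjusted p = 0.76 and 0.66). The Tfec call was lost without acoustics-on replicate 2 or 3 (adjusted p = 0.058 and 0.063), without acoustics-off replicate 1, 2 or 3 (0.20, 0.18 and 0.21), and with no filter on low values (0.055). Without acoustics-on replicate 1, Tfe3 passed too (log2 difference -0.48, adjusted p = 0.040). In that setting 855 of 11486 genes passed, against 242 of 11664 with all libraries. In the authors' deposited table Tfec was higher (log2 fold change 0.97, adjusted p = 1.8e-05) and Tfe3 lower (-0.48, adjusted p = 0.020).

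Of the inhibitors, 5 of the 14 listed genes were tested and 0 passed (limma). A positive difference with an unadjusted p under 0.05 was seen for 3 (Cst7, Cstb and Serpinb1a), and for 10.5% of all genes tested. Serpinb1a reached 0.5 FPKM only in its acoustics-on libraries, so its direction was fixed by the cut-off on low values. Its place in that count and its limma p-value are therefore not evidence of a rise. The same 3 genes were higher with an adjusted p under 0.05 in the authors' deposited table. Cst7 encodes cystatin F, a secreted and lysosomal inhibitor known to control cathepsin C. It had 17.0, 8.94 and 11.3 FPKM with acoustics on, against 4.69, 6.34 and 5.27 FPKM with acoustics off (log2 difference 1.02, SE 0.23, limma adjusted p = 0.087). Cstb encodes cystatin B, the cytosolic inhibitor of papain-type cathepsins. It had 1599, 819.96 and 858 FPKM with acoustics on, against 549, 584 and 566 FPKM with acoustics off (log2 difference 0.88, SE 0.27, limma adjusted p = 0.16). Serpinb1a, an inhibitor of granule serine proteases, had 8.70, 1.06 and 5.48 FPKM with acoustics on, against 0.0678, 0.243 and 0.0974 FPKM with acoustics off (log2 difference 2.16, SE 0.52, limma adjusted p = 0.096). Cst3, the secreted cystatin C, was lower in all acoustics-on libraries, at 4658, 3919.7 and 2865 FPKM, against 4908, 4877 and 5089 FPKM with acoustics off (log2 difference -0.41, limma adjusted p = 0.34, and -0.21 without acoustics-on replicate 3). Without acoustics-on replicate 1, where 855 of 11486 genes passed, Cst7 and Cstb passed at smaller log2 differences of 0.79 and 0.57 (limma adjusted p = 0.032 and 0.026). Cst7 and Cstb, like Ctsd, were thus highest in acoustics-on replicate 1, and Cst3, like Ctss, was lowest in acoustics-on replicate 3.

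Of 7 other lysosomal peptidases tested, Prcp fell and 0 rose, where 0.574% of all genes tested fell and 1.5% rose (limma). Prcp encodes a serine carboxypeptidase and had 23.0, 27.9 and 26.9 FPKM with acoustics on, against 46.3, 39.4 and 41.6 FPKM with acoustics off (log2 difference -0.69, SE 0.13, limma adjusted p = 0.049). That call was lost without acoustics-on replicate 2 or 3 (adjusted p = 0.059 and 0.096), without acoustics-off replicate 1, 2 or 3 (0.29, 0.20 and 0.25), with no filter on low values (0.076) and with equal FPKM totals (0.14). Lgmn, the asparaginyl endopeptidase that cuts several cathepsin precursors into 2 chains, had 710.1, 702 and 517 FPKM with acoustics on, against 819, 837 and 880.1 FPKM with acoustics off, and did not pass (log2 difference -0.41, limma adjusted p = 0.26, and -0.26 without acoustics-on replicate 3). Tpp1 and Dpp7, which cut short peptides from the ends of proteins, had log2 differences of -0.67 and 0.38 (limma adjusted p = 0.32 and 0.25). The Tpp1 value rested on acoustics-on replicate 1, at 87.9 FPKM against 223 and 224 FPKM in the other acoustics-on libraries, and was -0.23 without it.

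Of 5 partners and substrates, 0 passed (limma), and 1 had an unadjusted p under 0.05, where 19.7% of all genes tested did. That gene was Neu1, the neuraminidase held in the complex with cathepsin A, with 113, 91.1 and 89.4 FPKM with acoustics on, against 62.8, 66.7 and 63.0 FPKM with acoustics off (log2 difference 0.60, SE 0.14, limma adjusted p = 0.086). Without acoustics-on replicate 1, where 855 of 11486 genes passed, it passed at a log2 difference of 0.49 (limma adjusted p = 0.017). It was higher in the authors' deposited table (log2 fold change 0.61, adjusted p = 0.0052). Neu1 and Ctsa thus lay on opposite sides of 0, and Glb1, the beta-galactosidase of the same complex, had a log2 difference of -0.035 (limma adjusted p = 0.86). The saposin precursor gene Psap and the granulin gene Grn had log2 differences of -0.29 and -0.21 (limma adjusted p = 0.36 and 0.46), and of -0.16 and -0.11 without acoustics-on replicate 3.

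Of 15 genes that deliver hydrolases to the lysosome, 0 passed (limma). At an unadjusted p under 0.05, 1 was higher and 1 lower, where 10.5% of all genes tested were higher and 9.16% lower. The authors' deposited table had the same numbers past the adjusted threshold, where 5.08% of its genes were higher and 2.49% lower. The sorting receptor gene Sort1 had a log2 difference of 0.63 and Scarb2, which encodes the receptor for glucocerebrosidase, one of -0.39 (limma adjusted p = 0.10 and 0.15). Those of Vps29, a retromer subunit, and of Sorl1, a sorting receptor, were 0.39 and -0.30 (limma adjusted p = 0.27 and 0.28). Sorl1 reached 0.5 FPKM only in its acoustics-off libraries, so its direction was fixed by the cut-off on low values. Of 29 other lysosomal hydrolases tested, 0 passed (limma), while 1 was higher and 9 lower at an unadjusted p under 0.05, where 10.5% of all genes tested were higher and 9.16% lower, and the authors' deposited table had 1 higher and 2 lower past the adjusted threshold. The sulfatase gene Arsb (log2 difference -0.81, limma adjusted p = 0.051) and the galactosylceramidase gene Galc (-0.81, adjusted p = 0.061) came nearest. Naglu, a glucosaminidase, had a log2 difference of -0.64 and Aga, which splits asparagine from glycans, one of 0.49 (limma adjusted p = 0.15 and 0.12). Without acoustics-on replicate 1, Arsb, Galc, Aga and Sort1 passed (limma adjusted p = 0.0098, 0.012, 0.037 and 0.019), as did 855 of 11486 genes tested. Without acoustics-on replicate 2, Galc and Naglu passed (0.042 and 0.030), as did 324 of 11502 genes tested. With all libraries, 242 of 11664 genes passed. The medians of these lists were -0.16 for delivery and -0.14 for the hydrolases, against -0.027 over all genes tested. The list medians were -0.14 for the other peptidases, -0.07 for the partners, -0.16 for the MiT/TFE genes and 0.88 for the inhibitors. The inhibitor median includes Serpinb1a, which met the filter only through its acoustics-on libraries. The delivery median includes Sorl1, which met it only through its acoustics-off libraries.

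Of other genes with cathepsin symbols, Ctsk and Ctso were tested and 0 passed (limma). An unadjusted p under 0.05 was seen for 1 of them, where 19.7% of all genes tested had one. Ctsk, the collagen-degrading cathepsin of osteoclasts, had 29.6, 30.5 and 27.5 FPKM with acoustics on, against 19.3, 24.1 and 18.9 FPKM with acoustics off (log2 difference 0.48, SE 0.14, limma adjusted p = 0.14, and adjusted p = 0.058 in the authors' deposited table). The groups did not overlap. Ctso had a log2 difference of 0.03 (limma adjusted p = 0.94).

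**Figure D4:**
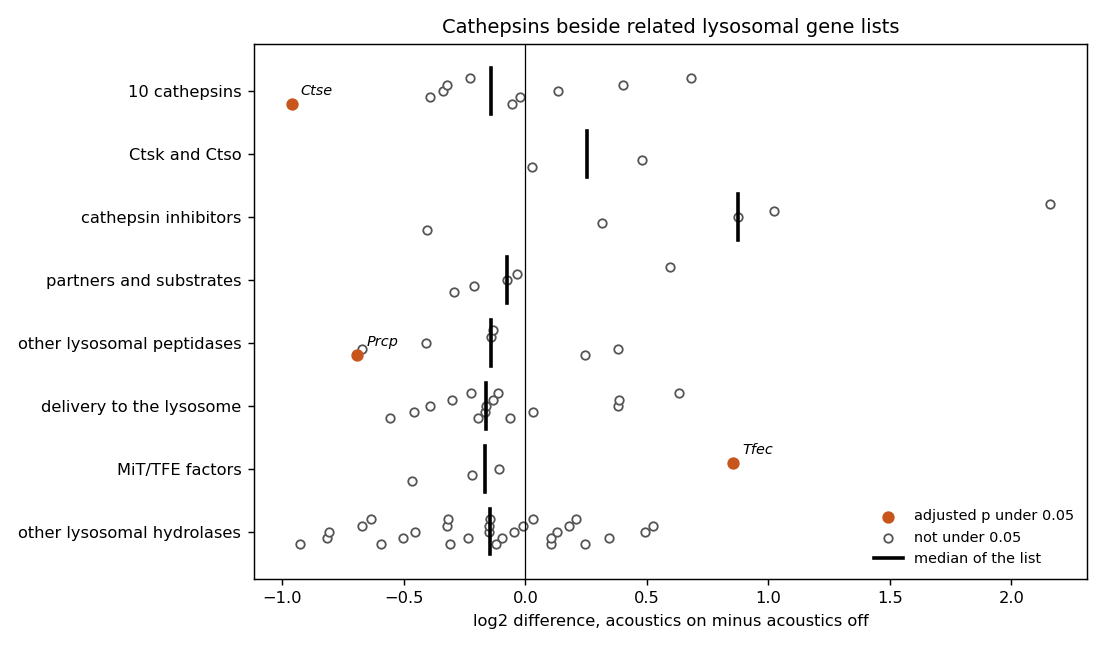
Log2 differences, acoustics on minus acoustics off, of the tested genes in the cathepsin set and in 7 related lysosomal lists; orange points have an adjusted p under 0.05 (limma) and black bars are list medians. Ctse, Prcp and Tfec are the genes that passed. The inhibitor list has the highest median, 0.88, with Serpinb1a included, which met the filter only through its acoustics-on libraries.

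**Figure D5:**
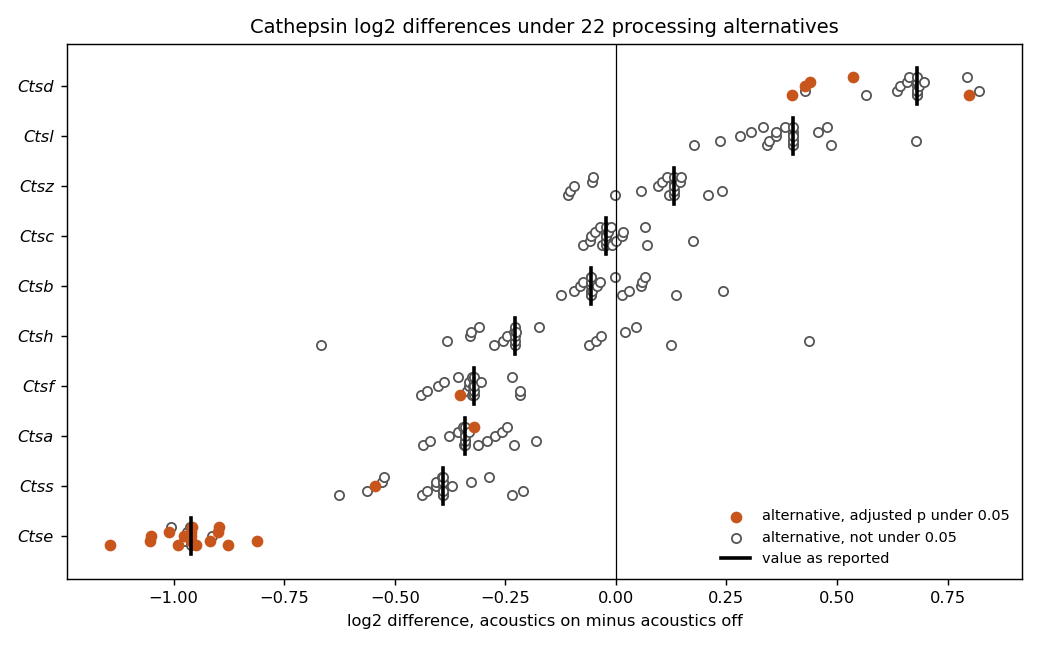
Log2 differences of the 10 cathepsins under 22 processing alternatives (circles, orange where the adjusted p was under 0.05) beside the value as reported (black bar). Ctse stays between -1.14 and -0.81 and Ctsd between 0.40 and 0.82, while Ctsb, Ctsc, Ctsh and Ctsz cross 0.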

How the data were processed

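RNA-seq values for 6 RAW264.7 libraries were used. The labels' protocols name a kit that removes ribosomal RNA, but their molecule field gives polyA RNA. The submitters' processing notes name GRCm38, DESeq2 1.38.2, Salmon 1.4.0, STAR 2.7.11 and Trim Galore 0.6.8, without the role of each. Per gene, the authors deposited an FPKM for every library. The authors' deposited comparison adds a mean normalised count (a signal value), a log2 fold change with SE, a Wald score, a p-value and an adjusted p, which 1586 genes lack. Median-of-ratios factors of the deposited FPKM were 1.01 in all 6 libraries, so the authors' FPKM already carry that scaling.

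Genes with at least 0.5 FPKM in at least 3 libraries were tested with limma 3.58.1 in R 4.3.3 on log2(FPKM + 1), with a trended, robust prior, acoustics on minus off, no covariate and Benjamini-Hochberg adjustment over all genes at 0.05. The code was tested on simulated data with the same spread in both groups, so the wider spread with acoustics on was not covered. Of the 242 genes called, 242 had the same sign in the authors' deposited table. Low FPKM, multiplied by each gene's ratio of mean count to mean FPKM, came within 0.05 of whole numbers for 57.9% to 67.1% of values under 15. This gave relative depths, but no reads were recovered. The implied length of a gene is that ratio on the scale of the summed normalised counts. Coordinates are from GENCODE M21 (GRCm38).

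The members and lists were chosen with earlier results of these data known. All 10 members are named, and of each related list up to 4 tested genes with the smallest p. Alternatives were other pseudocounts, filters, scalings, priors, library weights, a replicate term, each library left out, and a length and GC correction (loess, span 0.5). The equal FPKM totals and the correction on implied length were chosen after seeing the data.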

Additional observations from a re-analysis of the deposited data

How the results depend on the processing

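Over 22 alternatives Ctse kept its sign in 22 and passed in 16, and Ctsd kept its sign in 22 and passed in 5. Libraries with the same number in their titles showed no shared deviation (correlations -0.073, -0.020 and -0.0039). This does not settle whether the numbers pair the libraries, since other differences between libraries could mask a pairing. With the replicate block 0 cathepsins passed, Ctse at -0.96 (limma adjusted p = 0.064), nor did Tfec or Prcp (adjusted p = 0.087 and 0.14). With 1 library left out, 0 to 1 cathepsins passed, the Ctse log2 difference was -1.01 to -0.90, and 17 to 855 genes passed. The 855 were without acoustics-on replicate 1. Genes called numbered 150 with no filter, 1882 with library weights, 482 with the length and GC correction (1246 also without acoustics-on replicate 1), 638 with the correction on the implied length (1300 without that library), and 1051 with equal FPKM totals without it. Cathepsins called numbered 2 with quantile normalization (Ctsd 0.80) and library weights (Ctsd 0.44), 4 with the length and GC correction without acoustics-on replicate 1 (Ctsd 0.40), 3 on the implied length without it (Ctsd 0.43), 2 with equal totals without it (Ctsd 0.54) and 0 with equal totals (Ctse -0.97). The causes were not tested.

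Values near 0 changed sign. Ctsb was 0.058 with quantile normalization, 0.030 with weights, 0.14 and 0.24 with the length and GC correction on the annotated and implied length, 0.014 and 0.057 with these without acoustics-on replicate 1, and 0.067 with equal totals without it. Ctsc was 0.071 with weights, 0.015 and 0.015 with the corrections without acoustics-on replicate 1, 0.17 with equal totals without it, and -0.075 to 0.066 with a library left out. Ctsh was 0.44 with weights, 0.021 and 0.12 with the annotated-length correction and equal totals without acoustics-on replicate 1, and -0.67 to 0.045 with a library left out. Ctsz was -0.0031 with weights, -0.094 and -0.053 with the corrections, -0.11 and -0.10 with these without acoustics-on replicate 1, and -0.053 to 0.24 with a library left out. Mitf was 0.11 with weights, 0.017 with the implied-length correction, 0.17, 0.20 and 0.25 with the corrections and equal totals without acoustics-on replicate 1, and -0.41 to 0.15 with a library left out. Ctso was -0.0082 with upper-quartile scaling and -0.14 to 0.24 with a library left out, Tfeb -0.33 to 0.071 with a library left out, and Glb1 0.022 with equal totals without acoustics-on replicate 1. The longest annotated transcripts of Ctsa (3646 bases), Ctsh (2743 bases) and Ctsl (6168 bases) exceed their implied lengths (1533, 939 and 1708 bases), so the annotated-length values say little for these genes.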

Other observations

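The 3 genes most like Ctse over the 6 libraries, among the 10802 genes compared, were Ap1b1, Eif4b and Fam78a (Pearson's r of log2(FPKM + 1) 0.998, 0.997 and 0.996, a description over libraries that share their group, depth and scaling). Ap1b1, which encodes a subunit of the AP-1 adaptor of the trans-Golgi network, had 25.6, 28.0 and 26.8 FPKM with acoustics on, against 36.9, 35.3 and 35.6 FPKM with acoustics off. Eif4b, a translation initiation factor gene, had 244, 289 and 266 FPKM with acoustics on, against 436, 406 and 419 FPKM with acoustics off. Fam78a had 7.97, 9.20 and 8.84 FPKM with acoustics on, against 13.2, 12.1 and 12.4 FPKM with acoustics off. None of these 3 passed over all genes (limma adjusted p = 0.11, 0.068 and 0.10).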
